A study of Mus musculus with 7 samples.

Results

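The genes described here are 9 secreted regulators of bone morphogenetic protein (BMP) signaling in the mouse ovary, namely the ligands Bmp2, Bmp4, Bmp6 and Bmp7 and the antagonists or modulators Grem1, Nbl1, Chrd, Twsg1 and Bmper, out of 55487 gene rows. They were selected on their measured values in these same libraries: counts were scaled to library size as CPM with TMM factors, and control and PAMH F3 ovaries were compared. The difference of the 9 genes between the groups was therefore part of how they were chosen, and it is given as a description without a test. All 9 were among the 18779 genes kept by the filter on low counts.

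Ovaries of C57BL/6J mice were taken at diestrus on postnatal day 60 from 3 CNTR mice, the first-generation offspring of dams injected with PBS, and from 4 PAMH F3 mice. The F3 mice were the third generation from dams that were injected daily with anti-Müllerian hormone (AMH, 0.12 mg/kg) between E16.5 and E18.5 of pregnancy, and the later dams of the lineage were not injected. AMH given late in gestation is used as a mouse model of polycystic ovary syndrome. Control and F3 mice thus differed in generation as well as in ancestral treatment, and these cannot be told apart. Nothing in the labels states which libraries came from related mice, so the SDs measure the spread between these libraries. Each library held between 32158174 and 35485021 counts on genes.

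BMPs are dimeric ligands that bring type I and type II receptors together, and the type I receptor then phosphorylates SMAD1, SMAD5 and SMAD9, which enter the nucleus with SMAD4 and switch on genes such as those of the Id family. Antagonists of the DAN family (gremlin 1, from Grem1, and NBL1) and of the chordin family bind the ligands outside the cell and keep them from the receptors. In the ovary, theca, stromal and granulosa cells and the oocyte all make BMPs or their close relatives, and gremlin 1 is known as a granulosa cell product.

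The stretches just before the transcription start are shown for the genes whose window held the letters GGCGCC, the core of the BMP response element first described in the Id1 promoter, printed in capitals. The sequences are from RefSeq on GRCm38.p6, read 5′ to 3′ along each gene. They cover the 250 bases before the start at chr2:113758649-113758898 (minus strand) for Grem1, chr4:139092971-139093220 (minus strand) for Nbl1 and chr16:20732877-20733126 (plus strand) for Chrd.
Grem1: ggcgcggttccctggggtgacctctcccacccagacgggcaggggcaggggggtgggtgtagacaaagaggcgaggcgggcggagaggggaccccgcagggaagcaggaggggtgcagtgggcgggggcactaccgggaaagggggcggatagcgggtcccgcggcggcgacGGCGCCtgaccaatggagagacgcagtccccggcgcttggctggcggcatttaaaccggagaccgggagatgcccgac
Nbl1: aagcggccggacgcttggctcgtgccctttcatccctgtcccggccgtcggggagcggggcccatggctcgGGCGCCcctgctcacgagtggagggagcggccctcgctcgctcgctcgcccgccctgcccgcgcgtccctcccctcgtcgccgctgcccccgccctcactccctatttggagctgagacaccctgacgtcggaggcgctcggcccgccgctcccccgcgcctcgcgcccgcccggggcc
Chrd: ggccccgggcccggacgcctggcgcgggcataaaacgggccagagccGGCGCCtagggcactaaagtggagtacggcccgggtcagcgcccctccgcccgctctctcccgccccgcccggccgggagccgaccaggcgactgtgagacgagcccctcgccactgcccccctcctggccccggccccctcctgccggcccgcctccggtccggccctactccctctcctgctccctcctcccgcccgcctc
The match began 78 bases before the start in Grem1, 179 bases before it in Nbl1 and 203 bases before it in Chrd. These 3 were antagonist genes, and they were 3 of the 7 genes with a sequence in the table, in windows from 250 bases before to 50 bases after the start. Over 32851 promoters of the same length, 11.9% held GGCGCC, which reads the same on both strands. This share was not matched for GC content, which was 70.7% in the Grem1 window and 78.3% in those of Nbl1 and Chrd. In the windows of Bmper, Twsg1, Bmp4 and Bmp6 the GC content was 72.7%, 68%, 64% and 69.3%. The shorter SMAD motif GTCT, searched on both strands, was in 7 of the 7 windows and in 88% of all promoters. TATAAA, also searched on both strands, was in 0 of the 7 and in 13.6% of all promoters. Sequences of Bmp2 and Bmp7 were not used here. Among the Id genes, which are BMP targets, the windows of Id2 and Id4 held GGCGCC and that of Id3 did not. These are matches of letters in a short window and do not show that a SMAD protein binds there.

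Of the 9 genes, 3 antagonists or modulators had the highest levels. Per kilobase of merged exons, the mean over all 7 libraries was 49.97 ± 2.65 CPM per kb (SD, n = 7) for Twsg1, which binds BMP together with chordin and can either strengthen or weaken its inhibition. It was 40.77 ± 8.49 CPM per kb for Nbl1 and 27.09 ± 10.72 CPM per kb for Grem1. The most abundant ligand on this scale was Bmp2, at 8.09 ± 2.18 CPM per kb, and the ranges of Grem1 and Bmp2 over the libraries did not overlap. Below it came Bmp6 at 5.45, Bmper at 3.89, Bmp4 at 3.49, Bmp7 at 1.76 and Chrd, the founding member of the chordin family, at 0.634 CPM per kb. Apart from Grem1 over Bmp2, the neighbors in this order had ranges that did not overlap for Bmp4 over Bmp7 and Bmp7 over Chrd, whereas each other neighboring pair overlapped. The order depended on the length used: with the median transcript length in place of merged exons, 5 of the 9 genes kept their rank, and Bmp6 then stood above Grem1.

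**Figure D1:**
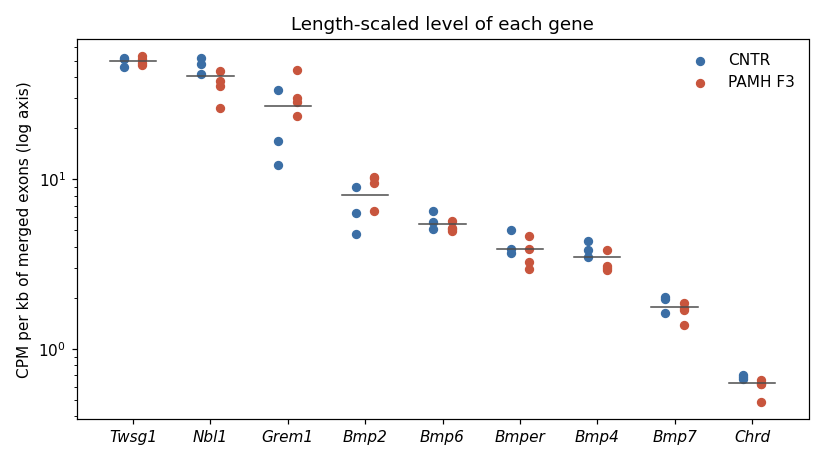
Level of each of the 9 genes in CPM per kilobase of merged exons (log axis), ordered by the mean over all 7 libraries (gray line), with 1 point for each of the 3 CNTR and 4 PAMH F3 libraries. Twsg1, Nbl1 and Grem1 lay above all ligands, and Chrd lay lowest at a mean of 0.634 CPM per kb.

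Grem1 (ENSMUSG00000074934, chr2:113746164-113758646 on the minus strand of mm10) varied most of the 9 between mice. Its level was 50.54, 70.27 and 140.0 CPM in the 3 CNTR ovaries and 118.4, 124.8, 98.53 and 183.9 CPM in the 4 PAMH F3 ovaries. The third control stood well above the other controls and within the PAMH F3 range, so that the groups overlapped and only 1 PAMH F3 ovary exceeded every control. The group means were 86.95 ± 47.03 CPM (SD, n = 3) and 131.4 ± 36.75 CPM (SD, n = 4), a log2 ratio of 0.60. That ratio was 1.12 without CNTR replicate 3 and 0.32 without CNTR replicate 1, and each of the libraries left out kept it above 0. In the edgeR fit with 2 surrogate variables, which are covariates estimated from the counts themselves, the log2 fold change of Grem1 was 0.82 (SE 0.07), against 0.60 (SE 0.33) without them. The SEs of the fit with surrogate variables, here and below, measure only the spread left after these covariates. They came from the same 7 libraries, so these SEs are not the full spread between mice. The SD within groups of log2 CPM placed Grem1 at the 92.5th percentile of the genes tested, compared with the 10.9th for Twsg1.

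The Grem1 level was read beside markers of ovarian cell types. The summed level of 8 granulosa markers, among them the FSH receptor and aromatase, was 2475, 2776 and 3770 CPM in the CNTR libraries and 2719, 3063, 3165 and 3855 CPM in the PAMH F3 libraries. The lowest sum and the highest sum were in the libraries with the lowest and the highest Grem1. Per 1000 CPM of these markers, Grem1 was at 20.42, 25.31 and 37.15 CPM in CNTR and 43.56, 40.73, 31.13 and 47.71 CPM in PAMH F3, and it still spanned 2.34-fold between libraries, against 3.64-fold before. The scaled groups overlapped too, through the third control and the third PAMH F3 ovary. In contrast, 4 adipocyte markers summed to between 180.7 and 571.7 CPM in CNTR and between 74.22 and 406.8 CPM in PAMH F3, with the most in the CNTR library of lowest Grem1 and the least in the PAMH F3 library of highest Grem1. The 5 stromal markers summed to between 1520 and 1572 CPM in CNTR and between 1158 and 1490 CPM in PAMH F3, and these groups did not overlap. For the other 8 lists the groups overlapped. These sums ran from 6586 to 9033 CPM in CNTR and from 7097 to 9298 CPM in PAMH F3 for theca cells, and from 2095 to 3702 and from 1481 to 2552 CPM for luteal cells. Those of oocytes ran from 394.1 to 475.3 and from 303.9 to 490.1 CPM, those of endothelial cells from 186.1 to 228.0 and from 153.9 to 236.4 CPM, and those of smooth muscle from 948.4 to 1459 and from 785.2 to 1247 CPM. Leukocyte markers summed to 79.1 to 89.62 and 71.44 to 102.6 CPM, surface epithelium markers to 543.3 to 685.8 and 419.5 to 766.3 CPM, and oviduct epithelium markers to 2958 to 5259 and 2542 to 6365 CPM. The tissue thus carried granulosa, oocyte and theca transcripts as well as those of the adjoining oviduct and fat. No marker of any list was at 0, but Insl3 of the theca list and Cd3e of the leukocyte list were under 1 CPM. On the log2 scale, Pearson's r of the summed markers with Grem1 was 0.85 for granulosa and 0.78 for theca cells. It was −0.84 for adipocytes, −0.75 for surface epithelium, −0.66 for oviduct epithelium and between −0.51 and 0.16 for the remaining lists. In whole ovaries, more cells of a type and more RNA per cell cannot be told apart, and the part of cell make-up in the values of Grem1 and the other 8 genes was not tested.

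Among 12697 genes with a mean of at least 5 CPM, Slc2a4rg-ps had the log2 CPM most like that of Grem1 over the 7 libraries (Pearson's r = 0.997). R3hdm1 (0.992), Usp48 (0.989) and Zfp641 (0.988) came next. The fifth was Robo1 (0.979), a receptor of SLIT guidance proteins, at 55.87, 60.04 and 100.2 CPM in CNTR and 95.3, 97.87, 74.32 and 123.1 CPM in PAMH F3. The first control was lowest and PAMH F3 replicate 4 highest for both Robo1 and Grem1. With 7 libraries and so many genes compared, high values of r arise readily, and they are given as a description. Of the other genes of the group, Bmp2 was nearest to Grem1, at rank 509 with r = 0.81, whereas Nbl1 was at rank 12511, close to the opposite end.

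The genes beside Grem1 on chromosome 2 were read from the same fit. Fmn1, which encodes an actin-nucleating formin and ends 29397 bases away, was at 23.86 ± 2.49 CPM in CNTR and 20.63 ± 4.36 CPM in PAMH F3 (log2 fold change −0.32, SE 0.14, edgeR quasi-likelihood adjusted p = 0.664). Scg5, which encodes a secretory granule chaperone and lies 17716 bases away on the other side, was at 5.99 ± 0.75 and 5.83 ± 0.67 CPM (log2 fold change 0.02, SE 0.15, adjusted p = 0.991). Neither gene passed the test, but it called 0 of the 18779 genes tested, Grem1 included. The outcome therefore does not set the neighbors apart from Grem1.

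Nbl1, the other DAN family antagonist of the group, had the opposite pattern. It was at 97.25, 105.9 and 84.8 CPM in CNTR and at 89.12, 72.12, 77.44 and 53.49 CPM in PAMH F3. All but the first PAMH F3 ovary were below every control. The means were 95.98 ± 10.61 and 73.04 ± 14.84 CPM, a log2 ratio of −0.39, and the edgeR estimate was −0.40 (SE 0.15). Nbl1 is GC-rich (61.1% of its longest transcript), and CNTR replicate 2 favored GC-rich genes, with a slope of 0.298 log2 units per 10% GC against −0.119 to 0.0452 in the other libraries. After removal of each library's GC trend, a correction added after seeing the data, the difference in mean log2 CPM of Nbl1 went from −0.41 to −0.18, that of Grem1 from 0.69 to 0.65 and that of Bmp2 from 0.47 to 0.48.

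**Figure D2:**
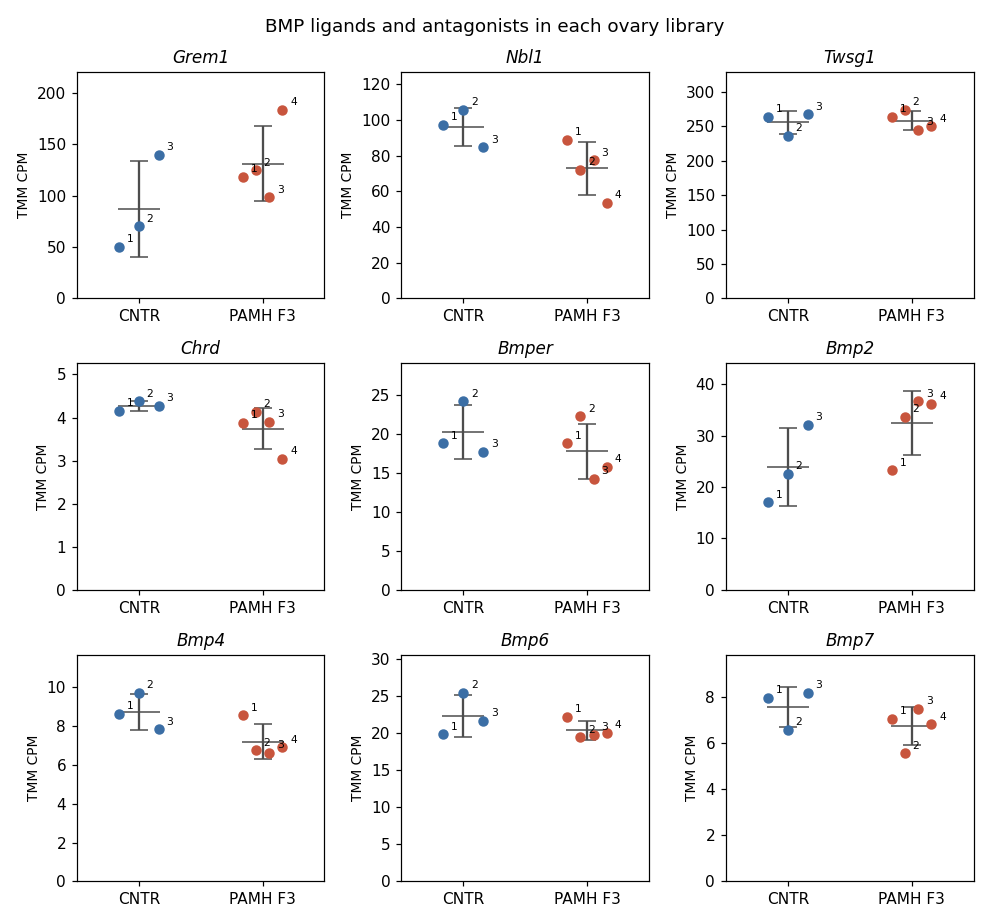
Level of each of the 9 genes (TMM CPM, linear axes from 0) in the 3 CNTR (blue) and 4 PAMH F3 (red) libraries, with replicate numbers beside the points, the group mean as a gray dash and the SD as a bar. Grem1 spread from 50.54 to 183.9 CPM with overlapping groups, whereas the Chrd values of PAMH F3 lay just below those of CNTR.

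For the chordin family and its partners, the group means lay close together. Chrd was at 4.159, 4.38 and 4.271 CPM in CNTR and at 3.882, 4.126, 3.906 and 3.041 CPM in PAMH F3. All 4 PAMH F3 values were below all controls, but the nearest pair, at 4.159 and 4.126 CPM, lay closer than the counting error of 10.2% at the lowest Chrd count of 97. After the GC correction the groups overlapped, from 4.087 CPM at the lowest control to 4.235 CPM at the highest PAMH F3 ovary. Bmper, which encodes a chordin-like protein that can both inhibit and promote BMP signaling, was at 20.22 ± 3.47 CPM in CNTR and 17.75 ± 3.55 CPM in PAMH F3. Its log2 ratio of −0.19 shrank to −0.04 without CNTR replicate 2. Twsg1 was the steadiest of the group, between 236.7 and 274.5 CPM in all 7 libraries, with means of 256.2 ± 17.0 and 258.5 ± 13.35 CPM.

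Of the ligands, Bmp2 had the higher mean in PAMH F3. It was at 17.0, 22.56 and 32.09 CPM in CNTR and at 23.21, 33.64, 36.68 and 36.21 CPM in PAMH F3. Here 3 of the 4 PAMH F3 ovaries were above all controls, and the first fell among the controls. The means were 23.88 ± 7.64 and 32.44 ± 6.30 CPM, a log2 ratio of 0.44, which ranged from 0.25 without CNTR replicate 1 to 0.71 without CNTR replicate 3. The edgeR estimate was 0.63 (SE 0.17).

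Bmp4, a close relative of Bmp2, had the lower mean. It was at 8.619, 9.721 and 7.83 CPM in CNTR and at 8.558, 6.746, 6.611 and 6.898 CPM in PAMH F3. As for Bmp2, the first PAMH F3 ovary lay within the control range and the other 3 lay outside it. The log2 ratio was −0.28, and the edgeR estimate was −0.28 (SE 0.16).

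Bmp6 and Bmp7, which form another branch of the ligand family, had overlapping groups. Bmp6 was at 22.36 ± 2.88 CPM in CNTR and 20.4 ± 1.26 CPM in PAMH F3 (between 19.45 and 25.5 CPM over all libraries). Bmp7 was at 7.57 ± 0.87 and 6.71 ± 0.83 CPM (between 5.541 and 8.17 CPM). Their log2 ratios were −0.13 and −0.17. That of Bmp6 was 0.004 after the GC correction. The Bmp6 gene overlaps Txndc5 on the opposite strand, which had between 12494 and 14987 counts per library. Chrd and Bmp4 overlap weakly counted genes on the opposite strand, Thpo (13 to 35 counts) and Gm15222 (8 to 31 counts). Whether the counting used strand is not given in the sources used here.

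**Figure D3:**
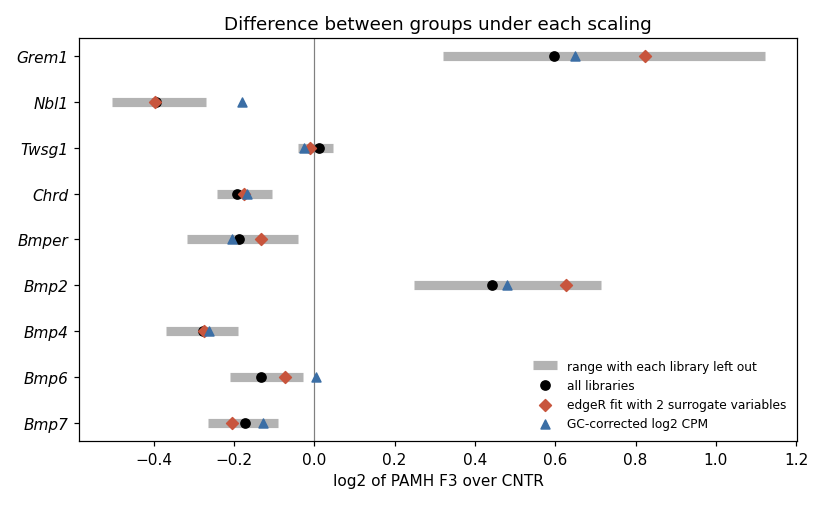
Log2 of PAMH F3 over CNTR for each of the 9 genes, as the ratio of mean CPM (black), its range with each library left out in turn (gray bar), the edgeR estimate with 2 surrogate variables (red) and the difference in GC-corrected mean log2 CPM (blue). Grem1 (0.60) and Bmp2 (0.44) lay to the right, Nbl1 (−0.39) lay to the left, and the GC correction moved Nbl1 to −0.18 and Bmp6 to 0.004.

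In all, 3 of the 9 genes had a higher mean in PAMH F3 and 6 a lower one. Groups did not overlap for 1 of the 9, against a background of 4.25% of all genes tested. With edgeR's quasi-likelihood test and Benjamini-Hochberg adjustment, 0 of the 9 genes and 0% of all genes were called, while 3 of the 9 (Grem1, Bmp2 and Nbl1) and 7.64% of all genes had an unadjusted p under the threshold of 0.05. When these covariates entered DESeq2 instead, 1 of the 9, Grem1, and 0.533% of the same genes were called. DESeq2 without the covariates called 0 of the 9 and 6 genes over the whole table. These counts come from the contrast by which the genes were chosen, and nothing is read from them.

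The summed levels and the composition of the group were also compared. The 4 ligands summed to 18.2 ± 2.28 CPM per kb in CNTR and 19.2 ± 1.15 CPM per kb in PAMH F3, and the 5 antagonists and modulators to 122.8 ± 8.22 and 122.0 ± 6.44 CPM per kb. Both sums differed between the groups by less than the SD of the controls. Ligands made up 12.9% ± 0.84 of the summed level of the 9 genes in CNTR and 13.7% ± 1.27 in PAMH F3. Within the sum, the share of Grem1 was 14.5% ± 6.80 in CNTR and 22.4% ± 5.90 in PAMH F3, and that of Nbl1 was 33.7% ± 5.45 and 25.5% ± 5.20. Among the 4 ligands, Bmp2 took 30.5%, 33.7% and 44.9% in CNTR and 36.7%, 50.3%, 51.1% and 50.7% in PAMH F3. The share of Bmp4 among the ligands was 21.6% ± 3.76 in CNTR and 16.8% ± 3.13 in PAMH F3. The first PAMH F3 ovary was within the control range for both shares. All these sums and shares are per kilobase of merged exons. With the median transcript length, Bmp6 was the highest ligand, at a mean of 31.66 CPM per kb against 8.09 for Bmp2. The shares thus depend on the length used.

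Across the 7 libraries, the log2 CPM of 36 pairs of the 9 genes was compared. The correlations are a description without a test, since the genes were chosen on a difference between groups of these same libraries. Bmp2 and Bmp4 were the most opposed pair by r (Pearson's r = −0.83, Spearman's rho = −0.93). Without the 2 libraries farthest from the median of Bmp2, r was −0.91, and within groups it was −0.73. Grem1 and Nbl1 were opposed as well (r = −0.79, rho = −0.79), with −0.71 and −0.66 in the same checks, the 2 libraries being those farthest from the median of Grem1. Grem1 and Bmp2 went together over all libraries (r = 0.81, rho = 0.61). Without the 2 libraries farthest from the median of Grem1 their r was 0.19, and it was 0.71 within groups. These libraries were picked on Grem1 alone, so how far the relation rests on them is not settled.

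To set these genes in their pathway, 60 other BMP genes were read from the same fit, of which 59 had a row and 53 were tested. With edgeR's quasi-likelihood test, 0 of the 53 and 0 of all 18779 genes passed at an adjusted p of 0.05. The smallest adjusted p of the list was 0.366. At an unadjusted p under the threshold, 10 of the 53 were counted (18.9%, against 7.64% of all genes). Of these, 7 were above 0 and 3 below 0 in log2 fold change of PAMH F3 over CNTR. The list was drawn up with earlier results of these data known, so nothing is read from this share. When the 2 surrogate variables entered DESeq2 instead, 3 of the list were called, against 0.533% of all genes tested. DESeq2 without them called 0 of the list and 6 genes over the whole table. The median log2 fold change of the list was −0.02, and over all genes it was 0.005. All PAMH F3 values lay above the controls in 1 of the 53, Tll1, and below them in 1, Rgma. Over all genes tested, the groups did not overlap for 4.25%.

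Other antagonists were read from the same fit. Fst encodes follistatin, which binds activins and, more weakly, BMPs, and it is itself one of the granulosa markers. It was at 189.3, 165.6 and 278.2 CPM in CNTR and 256.1, 318.3, 301.1 and 379.1 CPM in PAMH F3. As for Grem1, the third control lay within the PAMH F3 range, and 3 of the 4 PAMH F3 ovaries were above all controls. Its log2 fold change was 0.61 (SE 0.14, edgeR adjusted p = 0.511, DESeq2 adjusted p = 0.00711, and 0.998 by DESeq2 without surrogate variables). Crim1, a transmembrane BMP-binding protein, had a log2 fold change of 0.18 (SE 0.07, edgeR adjusted p = 0.631). Nog, which encodes noggin, had few counts, 10 to 45 per library (log2 fold change −0.51, SE 0.34, edgeR adjusted p = 0.775).

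The receptors and co-receptors had both directions. Rgmb, a co-receptor that presents BMP2 and BMP4 to their receptors, was at 75.82, 73.18 and 48.19 CPM in CNTR and at 78.41, 85.1, 92.03 and 70.3 CPM in PAMH F3 (log2 fold change 0.31, SE 0.06, edgeR adjusted p = 0.366, DESeq2 adjusted p = 0.0286, and 0.998 by DESeq2 without surrogate variables). Its relative Rgma was lower in every PAMH F3 ovary, at 8.197, 12.9 and 9.223 CPM in CNTR and at 7.509, 7.077, 7.03 and 6.02 CPM in PAMH F3 (log2 fold change −0.42, SE 0.14, edgeR adjusted p = 0.591). Rgma is also GC-rich, at 60.8%, and its difference in mean log2 CPM went from −0.52 to −0.29 with the GC correction. Its groups still did not overlap, at 9.002 CPM in the lowest control and 8.514 CPM in the highest PAMH F3 ovary. Bmpr2, the type II receptor, had a log2 fold change of 0.31 (SE 0.12, adjusted p = 0.629). The type I receptors Bmpr1a (−0.06, SE 0.05), Bmpr1b (0.21, SE 0.12) and Acvr1 (0.03, SE 0.08) had adjusted p values of 0.819, 0.730 and 0.961 in the same edgeR fit.

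Tll1 and Bmp3 were the genes with an unadjusted p under the threshold among proteases and other ligands. Tll1 encodes a tolloid-like protease that cleaves chordin. It was at 4.972, 5.131 and 5.045 CPM in CNTR and at 8.813, 5.963, 8.341 and 6.522 CPM in PAMH F3. All PAMH F3 ovaries were thus above all controls (log2 fold change 0.55, SE 0.19, edgeR adjusted p = 0.599). Groups without overlap, in either direction, were found for 4.25% of all genes tested. Bmp3, a ligand that antagonizes other BMPs, was at 53.18 ± 23.15 and 64.86 ± 4.69 CPM (log2 fold change 0.51, SE 0.15, edgeR adjusted p = 0.537). Its groups overlapped, with 0 of the 4 PAMH F3 ovaries above all controls. The log2 fold change of Bmp3 was 0.29 without surrogate variables, 0.12 without CNTR replicate 1 and 0.76 without CNTR replicate 3. The oocyte ligands Gdf9 (93.83 ± 16.55 and 93.79 ± 17.6 CPM, edgeR adjusted p = 0.993) and Bmp15 (42.53 ± 8.88 and 48.06 ± 8.05 CPM, edgeR adjusted p = 0.903) did not pass the test. It called 0 of the 18779 genes tested.

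**Figure D4:**
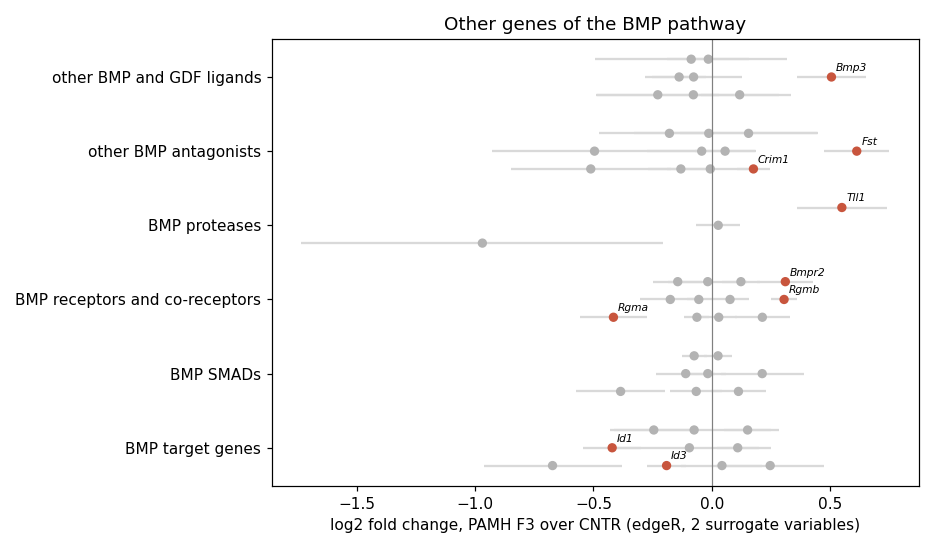
Log2 fold change of PAMH F3 over CNTR for 52 other BMP pathway genes by role, from edgeR with 2 surrogate variables, with the SE as a bar. Red points with names are the 9 plotted genes with an unadjusted p under 0.05, of which 6 lay to the right of 0 and 3 to the left. After adjustment, 0 of the plotted genes and 0 of all 18779 genes tested passed.

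Downstream of the receptors, the Id genes gave no uniform picture. Id1 was at 10.49, 30.0 and 13.21 CPM in CNTR and at 8.161, 11.2, 11.91 and 8.748 CPM in PAMH F3. Id3 was at 55.48, 135.3 and 96.09 CPM in CNTR and at 62.34, 65.8, 80.31 and 55.84 CPM in PAMH F3. CNTR replicate 2 was the highest library for both and was also the one with the GC slope of 0.298. Of the other controls, replicate 3 also lay above every PAMH F3 ovary for both genes, and replicate 1 lay within the PAMH F3 range for Id1 and just below it for Id3. The log2 fold changes were −0.42 (SE 0.12, edgeR adjusted p = 0.538) for Id1 and −0.19 (SE 0.08, edgeR adjusted p = 0.651) for Id3. Without CNTR replicate 1 both passed, at −1.01 (edgeR adjusted p = 0.0427) and −0.78 (edgeR adjusted p = 0.0349). That edgeR fit had only CNTR replicates 2 and 3 as controls. It called 39 of 19094 genes, and 3251 had an unadjusted p under 0.05. Without CNTR replicate 2 Id1 and Id3 were at −0.22 (edgeR adjusted p = 0.715) and −0.08 (edgeR adjusted p = 0.846). Without PAMH F3 replicate 4 Id3 was at −0.08 as well (edgeR adjusted p = 0.906). With the GC correction, the difference in mean log2 CPM was −0.66 in place of −0.70 for Id1 and −0.40 in place of −0.45 for Id3. Id2 (−0.25, SE 0.17) and Id4 (0.11, SE 0.09) had edgeR adjusted p values of 0.784 and 0.819. The median log2 fold change of the 10 target genes was −0.08, and −0.27 without surrogate variables.

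The SMAD genes did not pass the edgeR test, which called 0 of the 18779 genes tested. The inhibitory Smad6, which is itself a BMP target, was at 2.772, 6.361 and 3.466 CPM in CNTR and at 2.692, 2.439, 3.097 and 2.258 CPM in PAMH F3 (log2 fold change −0.39, SE 0.19, edgeR adjusted p = 0.702). CNTR replicate 2 was the highest, and 3 of the 4 PAMH F3 ovaries were below all controls. The log2 fold change of Smad6 was −0.68 without surrogate variables, −0.84 without CNTR replicate 1 and −0.22 without CNTR replicate 2. After the GC correction all 4 PAMH F3 values lay below all controls, and the difference in mean log2 CPM went from −0.59 to −0.36. The nearest pair, at 3.152 and 3.095 CPM, came from 92 and 95 counts and lay closer than the counting error of 10.2% at 97 counts. The share of all genes without overlap after this correction was not computed. The inhibitory Smad7 had a log2 fold change of 0.11 (SE 0.12, edgeR adjusted p = 0.859). Of the receptor-regulated SMADs, Smad1 (−0.07, SE 0.11, edgeR adjusted p = 0.926) and Smad5 (−0.02, SE 0.08, edgeR adjusted p = 0.983) had estimates near 0, and Smad9 was at 0.21 (SE 0.18, edgeR adjusted p = 0.819). Without CNTR replicate 1 the estimates of Smad9 and Smad7 changed sign, to −0.02 and −0.19, and without PAMH F3 replicate 3 that of Smad9 was 0.37.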

How the data were processed

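Ovarian poly(A) RNA was sequenced from stranded libraries of 3 CNTR and 4 PAMH F3 mice. The authors deposited raw read counts per Ensembl gene for each library, made per the labels' processing notes with bcl2fastq 2.17.1.14, STAR 2.5.3a on mm10 and HTSeq 0.6.1p1, without normalization. The Ensembl release and the strand setting are not given in the sources used here. The 5 summary lines per library, 45.8% to 47.5% of all counts (mostly alignments that were not unique), were left out. Of the 55487 rows, 55394 matched GENCODE M21 by identifier.

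TMM CPM was computed over all gene rows with edgeR 4.0.16 in R 4.3.3, log2 CPM with a prior count of 2. Groups were compared by edgeR's quasi-likelihood F test after filterByExpr (minimum count 10), with 2 surrogate variables from sva 3.50.0, 3 residual degrees of freedom and a Benjamini-Hochberg adjusted p of 0.05. DESeq2 1.42.0 was an alternative. The tests were checked on simulated data. Member counts were between 97 and 9320 per library. Counting errors cover counting only.

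The 9 genes and the lists were chosen with earlier results of these data known. Named genes were the 9, 18 fixed pathway genes, up to 10 others of the pathway list with an unadjusted p under 0.05 or groups that did not overlap, the nearest tested gene on each side of Grem1 and the 5 genes most correlated with it. The values of 1 gene of the pathway list are not reported here, though it stays in the counts over the list. Markers of 11 cell types were summed. GC correction subtracted each library's median deviation in 20 bins of transcript GC content (18773 of 18779 genes). Other alternatives changed the number of surrogate variables, the size factors, the filter, robust fitting, the gene length and the libraries, and added a replicate block.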

Additional observations from a re-analysis of the deposited data

Results flagged for a closer look

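Of 32 genes examined for a library that stood apart within the 4 PAMH F3 libraries, 1 was marked by Dixon's test. Bmp4 was at 8.558 CPM in PAMH F3 replicate 1, and the nearest of the other 3 libraries was at 6.898 CPM, a gap of 0.853 of the range against a critical value of 0.829. Chance marks about 1 in 20 groups, so that 1 of 32 is not more than chance gives. The same ovary had the lowest Bmp2 of its group, at 23.21 CPM.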

How the results depend on the processing

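The number of genes called over the whole table was 0 with edgeR and 2 surrogate variables (1435 at an unadjusted p under 0.05). It was 101 by DESeq2 with the same surrogate variables, 6 by DESeq2 without them, 8 in edgeR without a filter on low counts, and between 0 and 39 with a library left out (39 without CNTR replicate 1, 37 without PAMH F3 replicate 1). For the BMP pathway list the count of 0 became 3 by DESeq2 with surrogate variables and between 0 and 2 with a library left out (2 without CNTR replicate 1, Id1 and Id3, and 1 without PAMH F3 replicate 1, Fst at an edgeR adjusted p of 0.0496). Its count of 10 at an unadjusted p ranged from 4 to 16. Of the 9 genes, 5 kept their rank with median transcript length and 7 without length scaling. Their log2 ratios kept their sign in 12 alternatives each, except that of Twsg1, which changed sign in 4, and that of Bmp6, in 1. The causes were not tested.

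With a block for the replicate number, edgeR called 0 genes over the table (447 at an unadjusted p) and 0 of the pathway list (4 at an unadjusted p). Same-numbered CNTR and PAMH F3 libraries had correlations of 0.0957, 0.0965 and −0.248 in their deviations from the group means. CNTR replicate 2 and PAMH F3 replicate 3 reached 0.277. These values gave no sign that the numbers pair the samples, but so few correlations cannot exclude it. The depth and the 7 libraries limit what could be shown: the lowest count of a member was 97, and 3 residual degrees of freedom remained.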
